A study of Drosophila melanogaster with 3 samples.

Results

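Peaks between divergent gene pairs are binding sites of lilli-eGFP that lie close to the start sites of a pair of neighbouring genes transcribed away from each other. A peak was a member if its summit, the base of highest signal, lay within 500 bp of a transcription start site (TSS) of a plus-strand gene and of a TSS of a different, minus-strand gene, with the minus-strand start at the lower coordinate. Of the 6970 reproducible peaks on the dm6 genome (the optimal list), 1405 met this rule, or 20.2%. Applied to the strongest 6970 peaks of each replicate, the rule gave 1438, 1395 and 1344 members, 1392 ± 47.1 (SD, n = 3). The data came from chromatin immunoprecipitation with sequencing in 3 biological replicates that form 1 group, with no other genotype, treatment or stage to compare. Each replicate was whole Drosophila melanogaster embryos of mixed sex, aged 0 to 24 h, from a transgenic line that stably carries lilli with GFP at its C terminus, and the antibody was raised against GFP. The embryos pool every tissue and a day of development, so a peak does not say in which cells it lies, and all peaks come from 1 transgenic line.

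In flies the AF4/FMR2 family has a single member, Lilliputian (lilli). The protein is a scaffold subunit of the super elongation complex, which carries the kinase P-TEFb to RNA polymerase II paused just downstream of start sites and helps release it. In compact genomes such as that of the fly, many genes are arranged head to head, so that one stretch of open chromatin holds the core promoters of both genes. Such pairs are rich in genes that every cell uses, whose promoters often carry the DNA replication-related element (DRE), bound by Dref, or Motif 1, bound by M1BP, in place of a TATA box.

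The sequences below show what lies under the summits that the results turn on. All are the plus strand of the RefSeq release 6 assembly on dm6 coordinates, centred on the summit of a member or on the middle of an interval with no peak, and cut back where an annotated exon began. The first set holds 3 of the strongest members, and the capitals in the first of them mark CTACGCC, a word picked out after a count of all words at strong and weak members.
Tcs5/CHMP2B (chr3L:5139404-5139604): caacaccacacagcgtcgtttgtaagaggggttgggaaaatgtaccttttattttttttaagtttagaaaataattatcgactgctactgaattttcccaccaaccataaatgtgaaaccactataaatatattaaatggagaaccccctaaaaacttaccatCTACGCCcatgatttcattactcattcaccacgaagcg
mRpS23/CenG1A (chr2L:13835351-13835551): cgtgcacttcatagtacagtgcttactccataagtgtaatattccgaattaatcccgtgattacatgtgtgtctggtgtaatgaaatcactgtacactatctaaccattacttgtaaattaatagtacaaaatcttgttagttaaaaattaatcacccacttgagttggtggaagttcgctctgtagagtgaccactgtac
Art3/mRpS10 (chr3R:15229426-15229626): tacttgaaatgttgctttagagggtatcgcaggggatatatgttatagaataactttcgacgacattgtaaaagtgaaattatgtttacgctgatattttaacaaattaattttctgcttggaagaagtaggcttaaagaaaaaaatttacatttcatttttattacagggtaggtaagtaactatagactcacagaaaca
The second set holds a strong member with each of the words TATCGAT (the core of the DRE), GGTCACAC (the core of Motif 1) and CAGCTG (an E-box), on either strand and in capitals, within such an exon-free stretch.
Atat/Shc (chr3L:9426802-9427002): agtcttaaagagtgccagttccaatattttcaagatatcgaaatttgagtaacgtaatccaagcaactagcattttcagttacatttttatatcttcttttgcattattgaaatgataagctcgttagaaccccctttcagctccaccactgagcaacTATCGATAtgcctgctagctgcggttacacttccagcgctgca
Ire1/Mrm2 (chr3R:19861335-19861535): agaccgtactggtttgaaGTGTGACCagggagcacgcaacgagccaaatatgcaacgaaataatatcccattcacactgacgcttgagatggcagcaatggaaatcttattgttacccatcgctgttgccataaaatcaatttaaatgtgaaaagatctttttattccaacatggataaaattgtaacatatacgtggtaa
CG3437/CG3552 (chr3L:9457706-9457906): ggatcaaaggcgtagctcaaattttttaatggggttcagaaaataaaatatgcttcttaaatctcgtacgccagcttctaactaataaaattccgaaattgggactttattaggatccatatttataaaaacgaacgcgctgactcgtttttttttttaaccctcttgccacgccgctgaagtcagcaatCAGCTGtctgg
The third set holds the intervals of 2 closely spaced pairs that had no peak by the rule in the pooled list, with TATCGAT in capitals.
TORIP/Ccdc58 (chr3L:19805081-19805180): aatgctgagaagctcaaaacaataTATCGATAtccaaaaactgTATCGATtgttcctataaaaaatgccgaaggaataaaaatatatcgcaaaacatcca
kz/fs(1)K10 (chrX:2242036-2242137): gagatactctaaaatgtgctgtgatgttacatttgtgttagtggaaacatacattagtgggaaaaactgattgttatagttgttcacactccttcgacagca
The Atat/Shc summit has 1 copy of the DRE word, while the TORIP/Ccdc58 interval has 2 and no peak, and the strongest members Tcs5/CHMP2B, mRpS23/CenG1A and Art3/mRpS10 have none.

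The members were overwhelmingly pairs of protein-coding genes. Both genes of the closest pair were protein-coding at 1298 of the 1405 members, and 107 involved a gene of another kind, 87 of them a long non-coding or antisense RNA facing a protein-coding gene. The 1405 summits belonged to 1252 closest pairs, and 86 summits met the rule with 2 or more gene pairs. The extreme case was the mod(mdg4) locus, where the annotation lists trans-spliced exons as separate genes and 1 summit counted for 21 pairs. Of members at a transfer RNA gene the strongest lay between tRNA:Tyr-GTA-1-8 and CG8036, with a signal of 1501.62 and place 89 in the optimal list.

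Nearly as many divergent coding pairs carried a peak as did not. The annotation holds 2667 pairs of protein-coding genes with divergent starts up to 1000 bp apart, the largest distance the rule allows. Of these, 1254 had an optimal peak by the rule, 47.0% in all, against 127 of the 767 other divergent pairs (16.6%). Here and below, the peak of a pair is one that meets the rule. A pair without one can still have a peak near the start of 1 of its genes. In all 3 replicates 1003 coding pairs had a peak, and 1246 had one in none. Of the 1413 coding pairs without an optimal peak by the rule, 449 had only a lower-ranked peak of the pooled list that met it. The other 964 had no pooled peak that met it. Some of these pairs repeat 1 locus. Of the coding pairs 42 are histone genes of the repeat on 2L, none with a peak in the optimal list or any replicate. Another 37 involve the mod(mdg4) locus on 3R, all with an optimal peak, and 21, 37 and 21 with one in the replicates. Leaving out either set, an alternative chosen after seeing the data, gave 47.8% without the histone pairs and 46.3% without those of mod(mdg4).

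Genes of divergent pairs were bound far more often than other genes. An optimal summit lay within 500 bp of a start of 2864 of the 5526 protein-coding genes in such a pair (51.8%), and of 1507 of the 8419 in none (17.9%), where 4371 of all 13945 coding genes (31.3%) were bound. In the replicates the shares were 49.9%, 52.3% and 49.7% in pairs and 17.8%, 18.2% and 17.2% outside, a difference of 32.9 ± 1.04 percentage points (SD, n = 3), in the same direction in 3 of 3 replicates. The exact sign-flip permutation test over the 3 replicates, two-sided, gave p = 0.25, the smallest value that 3 replicates allow. A gene in a pair can be counted through a summit nearer to its partner's start, which can raise its share over that of a lone gene. Per length of sequence, summits were denser: the 2.00 Mb that meet the rule held 703 optimal summits per Mb, and the 7.37 Mb within 500 bp upstream of a one-direction start held 255. Divergent sequence has starts of both genes of a pair within 500 bp and takes in stretches inside genes. One-direction sequence is counted only upstream of its nearest start, so these densities are not per start. The replicates had 719, 698 and 672 summits per Mb in divergent sequence and 252, 260 and 245 in one-direction sequence, so the ranges were far apart, with a ratio of 2.76 ± 0.083 (SD, n = 3) and p = 0.25 in the same exact test. Members made up 3.86% of the lower-ranked pooled peaks, 890 of 23030, and 13.9% of those at promoters, against 36.4% of the optimal promoter peaks.

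The share of pairs with a peak varied with the distance between their starts. Pairs over 200 and up to 400 bp apart were bound most often, at 64.0%, 66.2% and 62.2% in the 3 replicates (64.2% ± 2.02, SD, n = 3). For pairs up to 150 bp apart the share was 48.1% ± 1.96, and for the 149 pairs over 150 and up to 200 bp apart it was 42.7% ± 1.03. The closer classes hold all of the histone pairs, 24 and 18 of them, and without these their shares were 50.03% ± 2.04 and 48.6% ± 1.17, with overlapping ranges. The replicate values of the class up to 400 bp did not overlap those of either closer class, with or without the histone pairs. Of the 242 pairs over 200 and up to 250 bp apart 64.0% ± 1.89 carried a peak. Above 400 bp the share dropped to 25.5% ± 1.23, but there the stretch within 500 bp of both starts shrinks as the starts move apart, from 550 bp in the class of 400 to 500 bp to 100 bp in that of 800 to 1000 bp, so the rule itself lowers the count there. Counting an optimal peak at either gene instead, 45.0% of pairs from 600 to 800 bp and 46.1% from 800 to 1000 bp had one. On that measure the classes of 50 bp had 47.7% to 59.7% up to 200 bp and 65.5% to 74.3% from 200 to 400 bp. From 400 to 500 bp it was 66.7%, and from 500 to 600 bp 58.7%. Members with spacings from 200 to 400 bp were also the strongest, with a median optimal signal of 290 against 242 up to 150 bp, 213 from 150 to 200 bp and 225 above 400 bp.

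**Figure D1:**
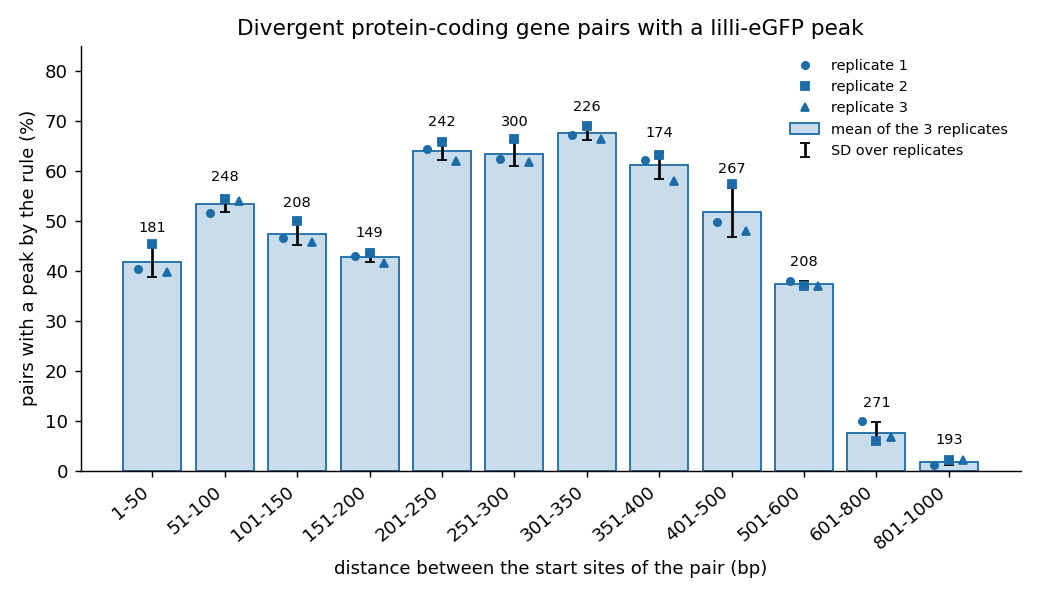
Share of divergent protein-coding gene pairs with a peak by the rule (y axis, percent) against the distance between their start sites (x axis, bp), with bars for the mean of 3 replicates, error bars for the SD and points for each replicate. The numbers above the bars are pairs, and the share is 42.7% for 150 to 200 bp (48.6% without 18 histone pairs) and 64.0% for 200 to 250 bp.

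Most summits, but not all, lay between the starts of the pair. Of the 1405 summits, 1039 (74.0%) lay between the start sites of the closest pair, and 366 lay outside it, 175 beyond the minus-strand start and 191 beyond the plus-strand start. In the replicates 73.4% ± 0.482 lay between (SD, n = 3). Since genes have several annotated starts, 217 of the 366 lay between the starts of another qualifying pair of transcripts, and 89.4% lay between the starts of some qualifying pair. Summits lay on both sides: 741 were nearer the plus-strand start, 658 nearer the minus-strand start and 6 at the midpoint. The median distance to the nearer start was 81 bp and to the farther start 212 bp, and one-direction upstream peaks lay a median of 140 bp from their start. At the edge of the rule, 10 members had their farther start in the last 10 bp of the 500 bp window (median signal 255), and 16 peaks missed the rule by up to 10 bp (median signal 209).

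Where the starts were close together, most summits lay outside the interval between the starts of the closest pair. With starts up to 50 bp apart, that interval is a small part of the stretch of about 975 bp that meets the rule. A summit placed anywhere in that stretch would mostly fall outside the interval, so the share outside is no sign of displacement. Of the 100 members with starts up to 50 bp apart, 94 had their summit inside one of the genes, a median of 84.5 bp past its start and 115.5 bp upstream of the other. In the replicates 90.3% ± 2.67 of such summits lay inside a gene, a median of 109 ± 2.08 bp upstream of the other start (SD, n = 3). Over 50 and up to 150 bp, 57.4% of the 258 summits lay inside a gene, and the distance upstream of the farther start was almost the same, 110.5 bp. That distance then grew with the spacing, to 146 bp from 150 to 200 bp and 206 bp from 200 to 400 bp. A summit between the starts is at least as far from the farther start as the midpoint is. This growth is therefore partly set in advance. In the class from 200 to 400 bp 87.0% of the 667 summits lay between the starts, a median of 62.5 bp from the midpoint. Of these 667, 272 (40.8%) lay in the middle of the interval cut into 3 equal pieces. Above 400 bp, 97.7% lay between the starts, a median of 112 bp upstream of the nearer one and 380 bp upstream of the farther one. With starts over 500 bp apart the rule admits only summits between them, so this share is partly set in advance. Positions varied, and at the widest bound pair the rule admits only a summit near the middle.

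**Figure D2:**
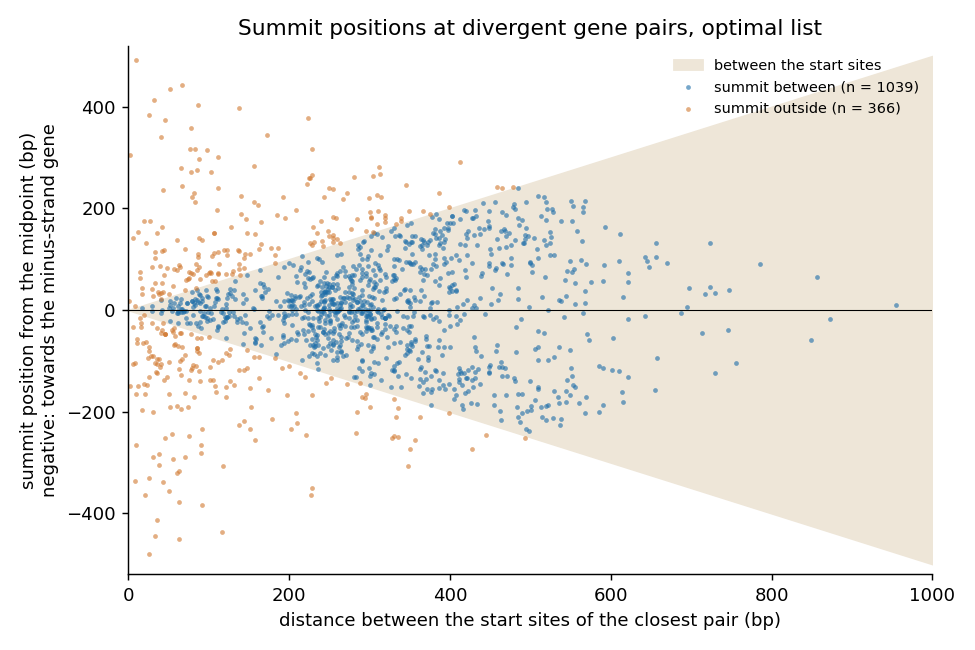
Position of each member's summit from the midpoint of its closest pair (y axis, bp, negative towards the minus-strand gene) against the distance between the start sites (x axis, bp) in the optimal list. Shading marks the space between the starts, with 1039 summits inside and 366 outside, the latter mostly where the starts are close together.

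The extremes of spacing were both coding pairs. The starts of Atg6, an autophagy gene, and Pisd, which encodes a phosphatidylserine decarboxylase, are 1 bp apart, and the summit lay 18 bp inside Pisd, at places 5780, 6236 and 3643 of the replicate lists. The widest bound pair, Ank2 and Mcad, an ankyrin and an acyl-CoA dehydrogenase of mitochondria, has starts 955 bp apart, and its summit was 488 bp from one and 467 bp from the other. That peak had places 1046 and 1700 in replicates 2 and 3 and no match within 100 bp in replicate 1, so its support is thinner.

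More than 1 summit fell at 152 of the closest pairs. These pairs were wider apart than those with 1 summit, with a median spacing of 309.5 bp against 264 bp. Their summits stood a median of 204 bp apart, with an upper quartile of 211 bp. The list itself has a floor there: no optimal summits on the same arm lie closer than 199 bp, and the 457 neighbouring summits within 250 bp of each other had a median distance of 203 bp. Most distances between paired summits therefore sat at that floor. The strongest of these pairs was CG5611/Mtl, with signals of 2054.62 and 324.635 and summits 203 bp apart. CG3437/CG3552 and CG11309/CG7632 followed, with strongest signals of 1777.33 and 1488.66, and in the latter, with starts 39 bp apart, neither summit lay between the starts.

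Peaks between divergent pairs were stronger than other promoter peaks. Signal is the authors' value per peak, used here only within a list. In the optimal list the median was 252 for members (quartiles 166 and 428), 218 for one-direction peaks upstream of their start, 168 for promoter peaks downstream of it and 184 for distal peaks. Ranked within each replicate list, where 100 is the strongest peak, members had median percentiles of 62.9, 63.5 and 63.9, and one-direction upstream peaks 54.0, 54.9 and 55.1. The groups did not overlap, and members were higher by 8.77 ± 0.132 percentile points (SD, n = 3) in 3 of 3 replicates, with p = 0.25 in the exact sign-flip permutation test. Of the strongest 697 optimal peaks 216 (31.0%) were members, and of the weakest 697 only 88 (12.6%). In the replicates the share went from 31.4% ± 1.31 of the strongest 697 to 12.2% ± 1.43 of the weakest, and the share of one-direction upstream peaks from 34.3% ± 2.01 to 21.6% ± 2.78.

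**Figure D3:**
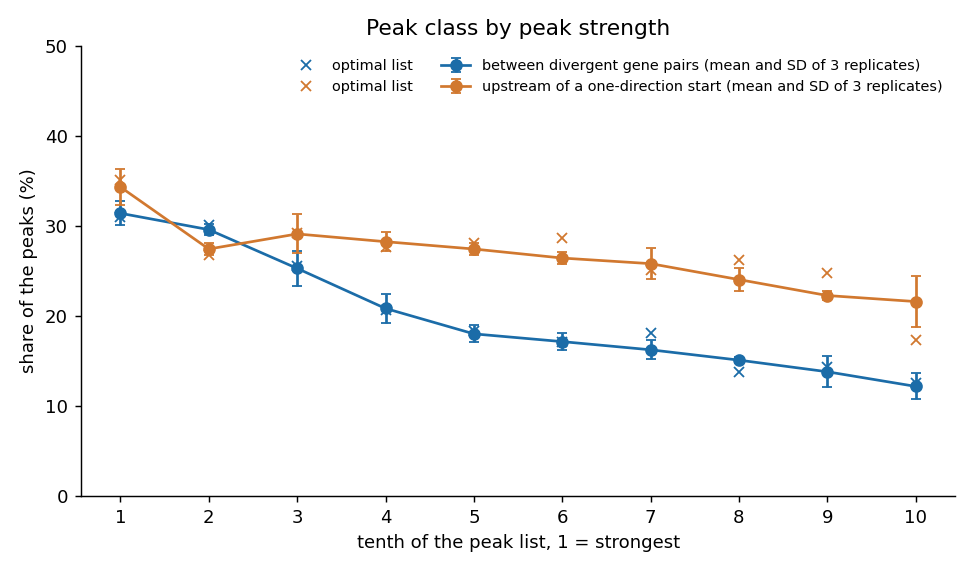
Share of peaks (y axis, percent) between divergent gene pairs and upstream of a one-direction start in each of 10 equal parts of the peak list by signal (x axis, 1 is the strongest), as mean and SD of 3 replicates, with crosses for the optimal list. The share between divergent pairs goes from 31.4% to 12.2%, and that of one-direction peaks from 34.3% to 21.6%.

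Most members were found again in each replicate. A summit within 100 bp was among the strongest 6970 peaks at 87.0%, 88.5% and 85.1% of the members in replicates 1, 2 and 3, and at 83.8%, 88.8% and 83.5% of one-direction upstream peaks. The ranges overlapped, the difference of 1.53 ± 1.79 percentage points was smaller than its spread, and it was positive in 2 of 3 replicates (exact sign-flip permutation test, two-sided, p = 0.5). In all 3 replicates at once 1008 members (71.7%) were found, and 66.0% of the one-direction upstream peaks. With windows of 250 bp the difference was 3.00 ± 0.223 points, higher in 3 of 3 replicates. Summits moved little, by a median of 19, 14 and 16 bp between the optimal list and the 3 replicates. Recovery is partly fixed by how the optimal list was made from these replicates.

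The strongest members kept their places in every replicate. All 20 were pairs of protein-coding genes, and the lowest place that any of them took in a replicate list was 79. The first was Chro/Ssl1 on arm 3L, with a signal of 3713.55 and place 5 in replicates 1, 2 and 3. Chro (FBgn0044324) encodes Chromator, a chromodomain protein of interbands and domain borders, and Ssl1 (FBgn0037202) a subunit of the general transcription factor TFIIH. Its summit at base 22878898 lay 86 bp inside Chro and 191 bp upstream of the Ssl1 start. Tcs5/CHMP2B on 3L, a kinase of tRNA modification and a subunit of the membrane-scission complex ESCRT-III, took places 8, 6 and 6, with the summit 109 bp upstream of the Tcs5 start and near the middle of the 224 bp between the starts.

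The pair mRpS23/CenG1A on 2L, a protein of the mitochondrial ribosome and a GTPase-activating protein of Arf GTPases, took places 10, 9 and 7. Art3/mRpS10 on 3R, an arginine methyltransferase and another mitochondrial ribosomal protein, took places 14, 17 and 23. The pair mRpL23/CG9004 took places 32, 29 and 28. Coq4, a factor of ubiquinone synthesis, with CG32176 took places 42, 39 and 31. Lon, the protease of the mitochondrial matrix, with PIG-F, an enzyme of GPI anchor synthesis, took places 40, 45 and 61.

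Atat/Shc on 3L, an α-tubulin acetyltransferase and an adaptor of receptor tyrosine kinases, took places 16, 23 and 17. Mkk4/SLIRP2, whose first gene encodes a kinase of the JNK pathway, took places 33, 34 and 43. Reps/l(2)gd1, the second a regulator of endosomal Notch trafficking, took places 57, 57 and 72. The rest were Pex11ab/CG8320 (a peroxisome gene), Fbw5/CG9147, Pdrg1/Pal1, CG8372/CG8360, CG5611/Mtl, CG5757/CG5098, tank/CG12194, Mnat9/CG1792, CG3437/CG3552 and CG4741/Adck1, with signals from 3269.89 down to 1735.29. In 12 of the 20 the summit lay between the starts, and none of the 20 was on the X chromosome.

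The gene lilli itself is in a bound divergent pair. Its start on 2L lies 79 bp from that of NTPase, a nucleoside triphosphatase gene. The summit at base 2885776 lay 153 bp upstream of the lilli start and 74 bp inside NTPase, with a signal of 810.652 and place 328 in the optimal list. It took places 304, 250 and 453 in replicates 1, 2 and 3. The line carries lilli with GFP as a transgene, and whether that adds a copy of this promoter is not given in the sources used here.

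By gene group, counts of genes with a member peak were read against the 2475 of 5526 protein-coding genes of divergent pairs (44.8%) with a peak of their pair. Genes of transcription elongation stood highest of the 21 lists, with 13 of the 15 in a divergent pair bound at it, and 12, 13 and 13 in the replicates. They include lilli, Nelf-E with RpL14, and Nelf-A with CG3337, the Nelf genes encoding subunits of the complex that holds paused polymerase. Of general transcription factors and RNA polymerase II subunits 15 of 24 were bound, led by the polymerase subunit genes Polr2H (place 238), Polr2J (478) and Polr2B (748). Of Mediator subunits 13 of 22 were, led by MED30 (place 117), MED27 (179) and MED7 (467).

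Of all protein-coding genes 39.6% were in a divergent pair, and of the 73 mitochondrial ribosomal protein genes 58 were. A peak of the pair was at 41 of these 58. Counting any peak within 500 bp of a start, the measure that can be set beside genes in no pair, 43 of the 58 and 4 of the other 15 were bound. By that measure aminoacyl-tRNA synthetase genes had 15 of 23 bound in pairs and 5 of 10 outside, and respiratory chain and ATP synthase genes 26 of 45 and 9 of 35. A peak of the pair was at 25 of the latter 45, led by ND-ASHI, a subunit of complex I, at place 206. Of vacuolar ATPase genes 10 of 14 in pairs were bound, and of genes for vesicle coats and Sec and Vps transport 24 of 36, led by Vps33B at place 70 and alphaCOP at place 167. Proteasome subunit genes had 15 of 26, led by Rpn5, Rpn3 and Rpn6 at places 529, 663 and 974.

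Of 55 cytoplasmic ribosomal protein genes in a divergent pair 31 had a peak of that pair (30, 31 and 30 in the replicates). Counting any peak at a start, 45 of the 55 were bound, and 22 of the 30 in no pair. The strongest were RpL34b, RpS20 and RpL7, at places 214, 252 and 268. Splicing protein genes were in pairs almost throughout, 29 of 31, and 15 of the 29 were bound. Translation initiation factors (8 of 22), nucleoporins (7 of 18) and DNA replication genes (10 of 25) lay near or under the 44.8% of all coding genes in pairs. Of the factors that bind housekeeping promoters and insulators 7 of 10 were, with Chro at place 5, Cp190, an insulator protein, at 150 and Dref at 933.

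Chemoreceptor, cuticle protein, and segmentation and homeotic genes were rarely in pairs, against 39.6% of all coding genes. Chemoreceptor and cuticle protein genes were also rarely bound there. Of 179 chemoreceptor genes 28 were in a divergent pair and 2 had a peak, Ir60e (place 3529, facing CG13585) and Gr63a (place 6750, facing Lamtor4). Of 111 cuticle protein genes 15 were in a pair and none had a peak there in the optimal list or any replicate. Of 36 segmentation and homeotic genes 5 were in a pair and 1, smo, the Hedgehog signal transducer, was bound at it. By any peak at a start 2 of these 5 were bound, and 5 genes are too few to compare with all coding genes. Of RNA genes, 97 of 290 for transfer RNA, 12 of 32 for small nuclear RNA and 27 of 269 for small nucleolar RNA were in pairs. A peak of the pair was at 8, 0 and 10 of them. Only 1 member had a small nucleolar RNA gene in its closest pair. Counting any peak at a start, 1 of the 12 small nuclear RNA genes in pairs and 9 of the 20 in none were bound.

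Bound pairs were unevenly spread over the arms. On 3R 56.1% of the 683 coding pairs had an optimal peak, and 53.3%, 54.5% and 50.2% in the replicates. On 3L the share was 46.7% in the optimal list and 45.9% ± 1.69 in the replicates (SD, n = 3), on 2L 43.4% ± 1.20, on X 42.0% ± 2.08 and on 2R 41.3% ± 1.71. The mod(mdg4) pairs raised the share on 3R and the histone pairs lowered that on 2L. Without them 53.6% of 646 pairs on 3R had an optimal peak, and 53.1%, 51.9% and 49.8% in the replicates. On 2L the share was then 48.6% of 467, and 46.5%, 48.8% and 46.7% in the replicates, so the order of 2L and 3L changed. The difference of 3L from 2L was 3.70, 2.50 and 1.19 points in the replicates with all pairs, and -0.13, -1.52 and -2.67 without those of the histone repeat. The 3R values lay above all values of the other 4 large arms with and without these pairs. On chromosome 4 the pair CG11076/ATPsynbeta, among 11, had the only optimal peaks.

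The pairs with no pooled peak by the rule included close pairs of named genes. The closest with both genes named and starts at least 100 bp apart were TORIP/Ccdc58, kz/fs(1)K10, TTLL6B/TfIIA-L, trbd/dmt and Cyp9h1/Or49b, at 101, 103, 105, 105 and 107 bp. They include a subunit of TFIIA (TfIIA-L), a deubiquitinase (trbd), an odorant receptor (Or49b) and an oogenesis gene (fs(1)K10), so close head-to-head starts alone did not come with a peak. A further start of TfIIA-L, divergent from pll, is bound, and only its pairing with TTLL6B lacks a peak.

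The DRE, Motif 1 and E-box words were more frequent around members' summits than around those of other upstream promoter peaks. The words were searched on both strands within 100 bp of the summit. Members lay a median of 81 bp from their nearer start and one-direction upstream peaks 140 bp from theirs. A member also has starts of both genes within 500 bp, so its window can take in more promoter sequence. The shares were not adjusted for this. TATCGAT was at 23.9%, 24.2% and 24.0% of members in the 3 replicates and at 16.0%, 17.2% and 15.0% of one-direction upstream peaks. GGTCACAC was at 7.65%, 7.53% and 7.37% against 3.98%, 4.91% and 4.04%, and CAGCTG at 14.4%, 14.6% and 15.6% against 11.7%, 12.4% and 11.6%. None of these ranges overlapped. The difference for TATCGAT was 7.88, 7.04 and 9.08 percentage points, for GGTCACAC 3.20 ± 0.538 and for CAGCTG 2.96 ± 0.904 (SD, n = 3), each higher in 3 of 3 replicates with p = 0.25 in the exact sign-flip permutation test.

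The word of the GAGA factor, which keeps promoters of developmental and heat-shock genes open, went the other way. GAGAGAG was at 1.32%, 1.00% and 1.04% of members and at 6.51%, 5.22% and 5.65% of one-direction upstream peaks, a difference of -4.67 ± 0.485 points. The initiator word TCAGTT was also rarer, 10.1% ± 0.404 against 13.4% ± 0.273. TATAAA was more frequent, 36.9% ± 1.17 against 31.7% ± 1.63, though it is a short word at sites of lower GC content. GTATTTTT, part of core promoter Motif 6, and CAGGTAG, the word of the early-embryo factor Zelda, differed by 0.42 ± 0.255 and 0.14 ± 0.162 points, and the latter was higher in 2 of 3 replicates. The exact p was 0.25 for each word but CAGGTAG (0.5), and values of 0.25 became 0.292 after adjustment over the 14 comparisons tested.

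**Figure D4:**
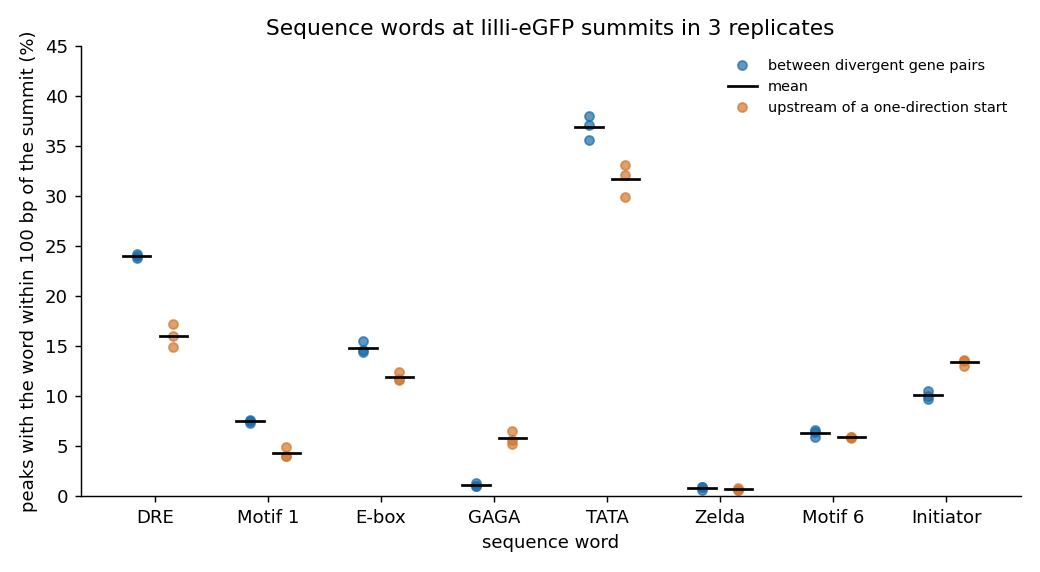
Share of peaks with a word within 100 bp of the summit (y axis, percent) for the 8 words (x axis, by their usual names) at peaks between divergent gene pairs and at one-direction upstream peaks, with a point for each of 3 replicates and a line at the mean. The DRE word is at 24.0% against 16.0% and the GAGA word at 1.12% against 5.79%.

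DRE words were densest next to the summit. The 50 bp to either side held 12.8 and 12.7 words per 100 members, against 0.569 and 1.28 in the outermost 50 bp, 450 to 500 bp away. One-direction upstream peaks showed the same centring, with 9.75 and 7.83 words per 100 peaks against 1.01 and 0.533. Of the 338 optimal members with TATCGAT, 212 (62.7%) had 2 or more matches over both strands. A single palindrome such as TATCGATA counts once on each strand, so these need not be separate copies. The share was 60.1% of the one-direction upstream peaks with the word. CAGCTG showed no such centring, with 3.56 words per 100 members in each 50 bp next to the summit and 4.06 and 3.63 in the outermost 50 bp. At one-direction upstream peaks it had 2.56 and 3.09 words per 100 peaks next to the summit and 2.40 and 2.02 in the outermost 50 bp. The excess of CAGCTG at members was therefore not confined to the summit. GGTCACAC was not densest next to the summit either, with 2.21 and 1.28 words per 100 members there and 2.21 on each side at 100 to 150 bp. In the outermost 50 bp it had 0.214 and 0.569. For comparison, 15.9% of all 19253 coding start sites had TATCGAT from 250 bp upstream to 50 bp downstream, a longer window. In that window 6.73% had GGTCACAC and 17.9% CAGCTG, against 7.54% and 14.7% of the optimal members. In windows as long as those at the summits, placed at the middle of coding pairs, TATCGAT was at 21.1% of the 1254 bound pairs, 23.2% of the 449 with only a lower-ranked peak and 9.54% of the 964 with no pooled peak. For GGTCACAC these shares were 4.78%, 11.1% and 3.53%, so the pairs of intermediate strength held it most often. These classes also differ in spacing. Of the 271 coding pairs from 600 to 800 bp 18 were bound, and of the 193 from 800 to 1000 bp 3 were. The middle of so wide a pair lies far from both starts, and the shares were not matched for spacing. The bound pairs also include none of the histone pairs.

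The shares of the DRE and E-box words varied with the distance between the starts. With starts up to 150 bp apart 30.4% of members had TATCGAT and 22.1% CAGCTG, from 150 to 200 bp 17.7% and 16.5%, and from 200 to 400 bp 23.2% and 11.99%. In the replicates CAGCTG was at 20.5% ± 1.11, 18.1% ± 2.54 and 13.4% ± 0.009 (SD, n = 3) in these classes, and TATCGAT at 28.9% ± 1.79, 22.3% ± 2.67 and 24.3% ± 0.812. The class from 150 to 200 bp has 79 members in the optimal list, and TATCGAT showed no steady trend.

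The DRE and Motif 1 words were more frequent at weak members than at strong ones. The optimal members were cut into 5 equal parts by signal, of 281 peaks each. In the strongest part 14.6% had TATCGAT and 2.85% GGTCACAC, and in the weakest 27.8% and 11.7%. In the replicates TATCGAT went from 14.6% ± 0.741 in the strongest part to 29.5% ± 1.66 in the weakest, GGTCACAC from 3.26% ± 1.05 to 11.03% ± 1.80, and CAGCTG from 14.9% ± 1.33 to 14.2% ± 1.93 (SD, n = 3). One-direction upstream peaks went the same way for TATCGAT, from 7.86% ± 1.53 to 17.5% ± 1.81, and for GGTCACAC, from 1.25% ± 0.527 to 6.28% ± 0.367. The median optimal signal was 221 with TATCGAT and 266 without, and 172 with GGTCACAC and 262 without. Of the 20 strongest members 1, Atat/Shc, had TATCGAT, none had GGTCACAC, 3 had CAGCTG and 16 had none of the 3 words. The sequences printed for Tcs5/CHMP2B, mRpS23/CenG1A and Art3/mRpS10 are of this kind.

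**Figure D5:**
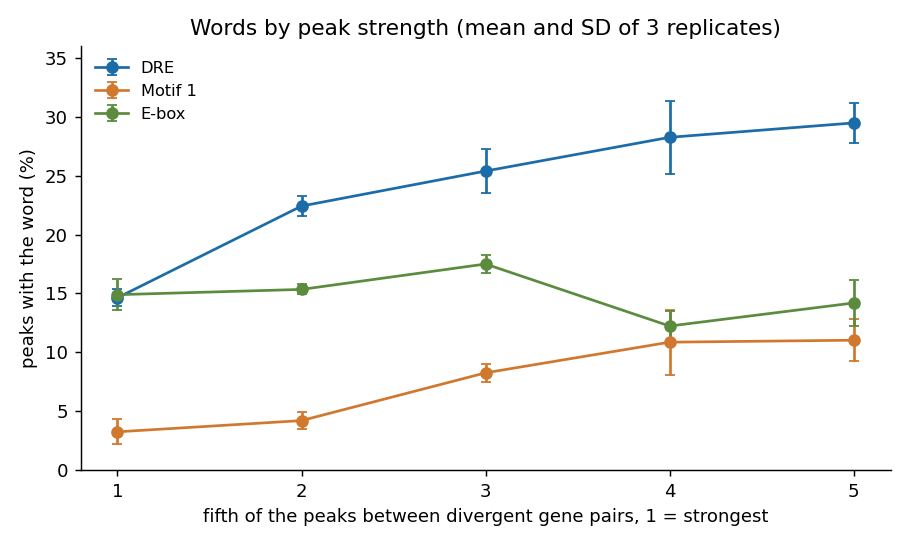
Share of peaks between divergent gene pairs with the DRE, Motif 1 or E-box word (y axis, percent) in 5 equal parts by peak strength (x axis, 1 is the strongest), as mean and SD of 3 replicates. The DRE word goes from 14.6% to 29.5% and Motif 1 from 3.26% to 11.03%, and the E-box word is at 14.9% and 14.2%.

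GC content was lower at members' summits and higher in their flanks than at other upstream promoter peaks. In the 51 bp at the summit GC content was 35.1%, 35.4% and 36.5% in the replicates, against 36.7%, 37.6% and 38.0% at one-direction upstream peaks, a difference of -1.76 ± 0.367 points, lower in 3 of 3 replicates (SD, n = 3). The windows 500 bp to either side had 49.6% ± 0.082 against 43.5% ± 0.119, higher in 3 of 3 by 6.04 ± 0.201 points. Both had p = 0.25 in the exact sign-flip permutation test. The rule places the flank windows of a member at or past a gene start on both sides. Those of a one-direction upstream peak need do so only on the side of its start. The flank difference is therefore not independent of the rule, and its small spread between replicates does not change that. What lies in the flanks (exon or intron) was not tested.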

How the data were processed

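Lilli-eGFP was mapped by ChIP-seq with an anti-GFP antibody in 3 biological replicates of whole embryos (1 group), on chromatin sonicated to 200 to 800 bp, per the labels. The authors made each replicate list of 30000 peaks and background against a control, the pooled list from all 3 replicates against it, and the optimal list by the irreproducible discovery rate, per the file headers (the deposited text). Which aligner and peak caller they ran is not given in the sources used here. The deposited signal is the authors' value per peak against the control and was ranked only within a list. The deposited −log10 q-values share 1 highest value at 1291 of the 1405 members and were not used. The lists hold no reads, so the depth is unknown and no counting interval is given.

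Summits were set against Ensembl release 115 start sites (23998 on dm6 chromosome arms, without transposable elements), with coordinates 1-based. Peak ends were checked to lie within the RefSeq arms. The closest pair of a summit is the qualifying pair with the smallest spacing. One-direction upstream peaks have their nearest start within 500 bp downstream of the summit and do not meet the rule. Values were recomputed from the strongest 6970 peaks of each replicate, and 14 differences were tested with an exact sign-flip permutation test over 3 replicates (two-sided, smallest p 0.25, Benjamini-Hochberg adjusted 0.292), so none could pass 0.05. Peaks are not replicates, and all lists share a control.

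The members, gene lists (21, some by name pattern), words and tests were chosen with earlier results of these data known. Named pairs are the 20 members with the highest signal, those with lilli, up to 3 genes per list, the closest and widest bound pairs, up to 3 pairs with several summits and up to 5 unbound pairs; the chromosome 4 pair and the CTACGCC word were chosen after their values had been seen. Listed names that match no annotated symbol (Ell, Nelf-B, Nelf-D, Paf1, Spt4, Mtor, Zw5, otd) were not counted; Nelf-B, Nelf-D, Paf1, Zw5 and otd are listed and counted under another name as well (NELF-B, TH1, atms, dwg, oc). Alternatives covered window, start sites, peak strength, peak middle, match distance, word window, the comparison peaks, each replicate and, chosen after seeing the data, pairs without those of the histone repeat or of mod(mdg4). The steps were tested on simulated data. The scripts ran under Python 3.11.15 with pandas 2.3.3 and numpy 2.4.6, and figures were drawn with matplotlib 3.10.9.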

Additional observations from a re-analysis of the deposited data

How the results depend on the processing

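The number of members was 1405, and 824 with windows of 250 bp and 876 among the stronger 3485 peaks. Their share of the list was 20.2%, and 11.8% with windows of 250 bp, 25.9% with 1000 bp, 18.7% with protein-coding genes only, 17.8% with the outermost start of each gene only and 25.1% among the stronger 3485 peaks. It was 21.5% to 22.2% without 1 replicate, which keeps 1072 to 1106 members and is a stricter set. The share of summits between the starts was 74.0%, and 74.9% with 250 bp, 69.3% with 1000 bp, 75.3% with protein-coding genes, 75.5% with outermost starts, 75.6% among the stronger 3485 peaks, 75.3% with the middle of the peak and 75.3% to 75.6% without 1 replicate. For words, GTATTTTT reversed to -0.28 points with outermost starts, and CAGGTAG to -0.038 with the middle of the peak and to -0.047 with words within 200 bp; the cause was not tested. The differences in summit density, bound genes, rank, recovery, GC content and the other 6 words kept their sign under every alternative run, but not their size. Lower GC at the summit went from -1.76 points to -0.22 with 1000 bp and -4.21 with 250 bp. GGTCACAC went from 3.20 to 1.02 ± 1.20 with 250 bp and 1.12 ± 0.325 with words within 50 bp, CAGCTG from 2.96 to 0.80 ± 1.12 with words within 50 bp (higher in 2 of 3 replicates), and GAGAGAG from -4.67 to -1.76 within 50 bp and -10.3 within 200 bp. TATCGAT was 2.35 ± 0.902 with words within 50 bp and 5.10 with outermost starts. Within 200 bp the differences of the DRE, Motif 1 and E-box words were 15.2, 7.82 and 8.51. TCAGTT went from -3.27 to -1.96 with outermost starts, -1.80 within 50 bp and -5.01 within 200 bp, and TATAAA to 3.40 with 1000 bp. Recovery went from 1.53 to 3.00 with 250 bp, 0.55 with 1000 bp and 0.56 ± 0.169 among the stronger 3485 peaks (3 of 3), and to 0.64 without replicate 1 and 2.43 without replicate 2. The density difference, 444 summits per Mb, was 894 with 250 bp and 181 with 1000 bp, and the rank difference of 8.77 points was 13.3 with 250 bp. The p of these differences could not pass the threshold under any of them, so this says nothing about significance. No paired analysis was possible because there is 1 group, so no groups could be paired; the sign-flip tests compared peak classes within each replicate. Depth is unknown, and embryos of all stages to 24 h were pooled.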

Other observations

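A word outside the list was more frequent at the strongest members than at the weakest, though few of either carry it. All 7-letter words within 100 bp of the summit were counted, on both strands, in the strongest and the weakest of 5 equal parts of the members, after the data were seen and with no test. CTACGCC stood first of 8099 words in the optimal list, at 18 of the strongest 281 members and 0 of the weakest 281. In the replicates it was at 20, 16 and 18 of the strongest part and at 2, 1 and 0 of the weakest, and took places 1, 2 and 1 among the words. The replicates made the optimal list, so they are not independent of it. Over all members it was rare, at 21 of 1405 (1.49%), against 1.23% of one-direction upstream peaks and 1.19% of distal peaks, and 1.36% of all coding promoters in longer windows. The choice of the word sets its relation to signal at members. At one-direction upstream peaks the median signal was 659 with it and 218 without, and at distal peaks 191 and 184. Tcs5/CHMP2B, the second strongest member, carries it, as its printed sequence shows. CG3437/CG3552, with a signal of 1777.33, carries it on the other strand (ggcgtag, near the start of its printed sequence and not in capitals). A weaker member with the word is fws/Lamtor3, with a signal of 930.42.

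Genes with a peak differed in length. The median length of the genes in bound coding pairs was 2498 bp and in coding pairs without an optimal peak by the rule 2136.5 bp. Bound coding genes in no pair had a median of 4223 bp and unbound ones 1826 bp. Of the 4371 bound coding genes, 2475 (56.6%) were in a bound divergent pair.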
